A study of Mus musculus with 8 samples.

Results

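Motile cilium axoneme genes code for the parts of the microtubule rod that lets a cilium beat, and 59 of them, named by their symbols as axonemal dyneins, radial spokes, docking and assembly factors and related parts, were followed in 2D and 3D cultures of mouse adipose-derived stem cells (ADSCs). Of these, 56 stood among the 24346 genes of the expression tables, and Dnah3, Dnah12 and Cfap54 were not analysed here. Tekt3 and Sntn were listed at 0 in every library, which left 54 genes for testing.

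Total RNA was sequenced from 8 cultures of wild-type (WT) BALB/c mice, labelled as primary cultures of mesenchymal stem cells from adipose tissue. Mice 2, 3, 4 and 5 gave 1 2D library each, and mice 1, 4, 5 and 7 gave 1 3D library each, which puts mice 4 and 5 in both cultures. The donors were males aged 12 weeks, and cells were freed from their gonadal fat with collagenase. The 2D cells grew in conventional culture and the 3D cells in Matrigel, a basement membrane gel, with media that could hold Wnt3a and R-Spondin1. The medium and passage of each sequenced culture are not given in the sources used here.

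A motile cilium is built on a ring of doublet microtubules around a central pair. Outer and inner dynein arms on the doublets are the motors, a nexin-dynein regulatory complex and radial spokes control them, and microtubule inner proteins stiffen the doublets. Multiciliated cells, as in the airway, oviduct, brain ventricles and efferent ducts of the testis, switch these genes on through Foxj1 and RFX transcription factors. Most other cells carry at most a primary cilium, which needs intraflagellar transport but lacks the dynein arms, spokes and central pair. Axoneme genes are therefore usually near 0 in cultured stromal cells.

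The cultures differed in more than these genes. Summed over 6 stromal markers (collagens, PDGF receptors and decorin), the 2D libraries held 1604 to 3761 FPKM (fragments per kilobase of transcript, scaled to the mapped fragments of the library) and the 3D libraries 0.0393 to 0.21 FPKM. Summed over 8 simple epithelial markers, the values were 3.14 to 658 FPKM in 2D and 1953 to 2425 FPKM in 3D. The highest 2D sum, in mouse 4, came mostly from the keratins Krt7, Krt8 and Krt18, at 74.7, 296 and 287 FPKM there. Epcam and Cdh1 were at most 0.031 and 0.725 FPKM in any 2D library and at least 212 and 227 FPKM in 3D. Of 5 mesenchymal stem cell surface markers, Thy1 and Eng were lower in 3D, at most 0.203 FPKM in every 3D library, and Ly6a was higher. Nt5e, at 0.0967 to 0.388 FPKM in 3D, and Cd44, at 52.9 to 89.7 FPKM, did not pass. For Thy1 and Eng the 3D values go against the label of those cultures. Nt5e also lay below its 2D range of 0.524 to 67.8 FPKM in every 3D library. For Cd44 and Ly6a, which stayed expressed in 3D, the values do not go against the label. As deposited, Cd44 in 3D still lay below its 2D range of 92.7 to 180 FPKM. Ly6a in the 3D library of mouse 1, at 50.3 FPKM, lay inside its 2D range of 26.0 to 189 FPKM. The 2D libraries of mice 3 and 4 stood apart, with 886 and 2343 FPKM over 6 mesothelial markers against 29.3 and 31.3 FPKM in those of mice 2 and 5. Depth, estimated from the steps between low values, was 16400000 to 17300000 fragments in 2D and 14500000 to 15500000 in 3D.

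Of the 54 axoneme genes tested, 34 were higher in 3D and 1 was lower at an adjusted p below 0.05, and 19 did not pass. Over all 18862 genes tested, 21.2% were higher and 20.3% were lower. The median log2 fold change was 1.87 over the 54 genes, with a range of −0.46 to 4.82, against 0.00 over all genes. On quantile normalized values all 4 3D libraries lay above all 4 2D libraries in 43 genes, below in 1 gene, and overlapped in 10, beside 21.6% of all genes above and 20.9% below. As deposited, Dnah9 also lay above, which made 44. In what follows, values in single libraries, and whether they overlap, are read from FPKM as deposited, while a fold change is a log2 difference of quantile normalized FPKM + 1 with its standard error (SE), n = 4 libraries for each culture. The log2(FPKM + 1) scale understates the change of genes with low values.

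Because mice 4 and 5 gave both cultures, the comparison was repeated within mice, blocking on the animal, at 1 residual degree of freedom. Under that pairing limma called 0 of the 54 genes, and also 0 of all 18862 genes tested. The 35 genes called without the pairing had adjusted p of 0.111 to 0.454 in that fit. An unadjusted p below 0.05 was found for 31 of the 54 genes (57.4%) against 27.7% of all genes. With the mouse as a random effect all 35 calls were the same. Without the 3D library of mouse 1, which held the most axoneme RNA, 37 genes were called higher and 1 lower, against 21.7% and 18.7% of all genes. Without the 2D libraries of mice 3 and 4, 27 were called higher and 2 lower, against 19.3% and 22.8% of all genes.

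Summed over the 56 genes, the 2D libraries of mice 2, 3, 4 and 5 held 44.8, 36.3, 41.9 and 39.2 FPKM. The 3D libraries of mice 1, 4, 5 and 7 held 868, 231, 354 and 509 FPKM. The cultures did not overlap, and within 3D the sum in mouse 1 was the highest and that in mouse 4 the lowest. Between 6 and 10 of the genes reached 1 FPKM in a 2D library and between 34 and 46 in a 3D library. In bulk RNA, more ciliated cells and more axoneme RNA in each such cell cannot be told apart.

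**Figure D1:**
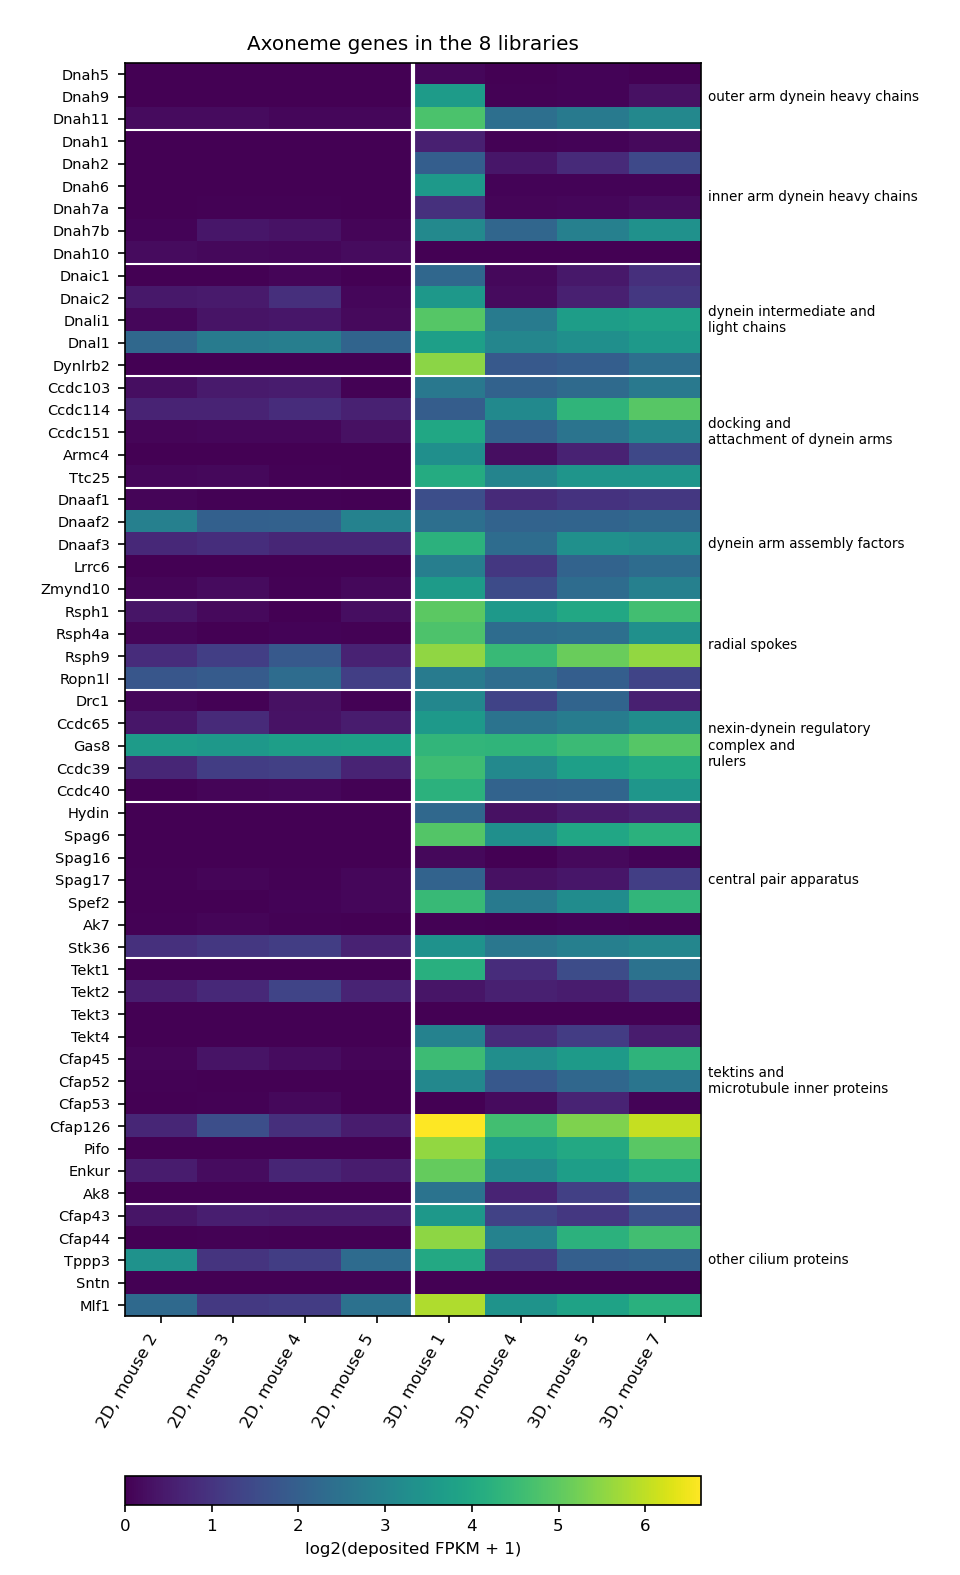
Heat map of log2(deposited FPKM + 1) for the 56 axoneme genes (rows, grouped by role) in the 4 2D and 4 3D libraries (columns). Most rows are dark in all 4 2D columns and light in the 3D columns, lightest in mouse 1, while Gas8, Dnal1, Dnaaf2 and Ropn1l are light in both cultures and Tekt3 and Sntn are at 0.

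The promoters of these genes are shown first, since RFX factors are known to bind the letters GTTGCC upstream of ciliary genes and Foxj1 belongs to the forkhead family. RefSeq promoters (GRCm38.p6, 250 bases before to 50 bases after the start) were matched for 48 of the 56 genes, 54 promoters in all. GTTGCC stood on either strand in 25 of the 54 promoters (46.3%), against 4111 of 32851 promoters of all genes (12.5%). The paired RFX motif, with facing sites 2 bases apart, stood in 2 (3.7% against 0.451%), those of Pifo and Ccdc151, and the Pifo match also holds its GTTGCC match. The forkhead motif GTAAACA stood in 5 (9.26% against 3.65%), those of Ak7, Cfap43, Mlf1, Sntn and Tekt3. GTTGCC was found in 14 of the 29 matched genes that were higher in 3D and in 10 of the other 19, so that it was about as frequent in both. GTAAACA was found in 1 of those 29 genes, Mlf1, and in 4 of the other 19, among them Sntn and Tekt3, at 0 in every library. A match is a run of letters and not a measured binding site.

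Pieces of 9 promoters upstream of the start are printed 5′ to 3′ on the gene's strand with the matches in capitals, to set the paired form (Pifo, Ccdc151), GTTGCC of genes that rose (Tekt1, Dynlrb2, Spag6, Cfap44), GTTGCC next to a forkhead motif (Mlf1), and GTTGCC of a gene that did not pass (Hydin) and of the gene that fell (Dnah10) side by side. On GRCm38.p6 they are chr3:106001498-106001557 (Pifo, minus strand), chr9:22002635-22002708 (Ccdc151, minus strand), chr11:72361883-72361957 (Tekt1, minus strand), chr8:116504924-116505009 (Dynlrb2, plus strand), chr2:18698945-18699021 (Spag6, plus strand), chr16:44394740-44394798 (Cfap44, plus strand), chr3:67373941-67374027 (Mlf1, plus strand), chr8:110266924-110266976 (Hydin, plus strand) and chr5:124725025-124725084 (Dnah10, plus strand).
Pifo: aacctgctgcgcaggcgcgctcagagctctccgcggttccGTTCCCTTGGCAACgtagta
Ccdc151: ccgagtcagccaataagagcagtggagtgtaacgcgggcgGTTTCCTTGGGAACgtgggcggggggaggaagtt
Tekt1: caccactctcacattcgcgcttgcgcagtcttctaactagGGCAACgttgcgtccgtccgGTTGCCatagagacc
Dynlrb2: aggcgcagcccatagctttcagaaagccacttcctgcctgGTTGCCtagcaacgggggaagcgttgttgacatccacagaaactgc
Spag6: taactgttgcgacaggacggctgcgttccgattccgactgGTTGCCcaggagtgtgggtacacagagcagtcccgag
Cfap44: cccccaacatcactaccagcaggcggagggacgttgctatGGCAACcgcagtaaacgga
Mlf1: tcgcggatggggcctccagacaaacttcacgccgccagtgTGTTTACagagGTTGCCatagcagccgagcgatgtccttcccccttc
Hydin: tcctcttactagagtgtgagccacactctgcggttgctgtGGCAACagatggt
Dnah10: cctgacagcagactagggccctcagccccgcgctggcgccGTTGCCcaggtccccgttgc

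The 3 outer arm heavy chains, the largest motor subunits, did not move together. Dnah11, at chr12:117877982-118199043 (minus strand, GRCm38), is known as the chain of the proximal part of the cilium, and in this and all later lists the 2D values are those of mice 2, 3, 4 and 5 and the 3D values those of mice 1, 4, 5 and 7. Dnah11 stood at 0.135, 0.135, 0.0861 and 0.0868 FPKM in 2D and 25.9, 4.37, 5.71 and 7.502 FPKM in 3D. The cultures did not overlap, and Dnah11 rose (log2 fold change 3.01 ± 0.51, adjusted p = 0.00248). Dnah9, at chr11:65831282-66168551 (minus strand), codes for the distal chain and stood at 0.00418, 0.00406, 0 and 0.00422 FPKM in 2D and 11.5, 0.02696, 0.04795 and 0.232 FPKM in 3D. Only the library of mouse 1 was above 1 FPKM, all 4 2D values were at or under the level of 3 fragments (at most 0.015 FPKM), and the difference did not pass (log2 fold change 0.98 ± 0.77, adjusted p = 0.347). As deposited, every 3D value of Dnah9 lay above every 2D value. Against the level of 3 fragments in 2D, its 3D mean without mouse 1 was at least 7.72-fold higher. Dnah5, at chr15:28203752-28472052 (plus strand), codes for the chain known to run along the whole cilium and stood at 0.00368, 0.00357, 0.00352 and 0 FPKM in 2D and 0.0757, 0, 0.0422 and 0.0118 FPKM in 3D. Dnah5 thus stayed under 0.1 FPKM in all 8 libraries, including that of mouse 1 with 11.5 FPKM of Dnah9 (log2 fold change 0.03 ± 0.02, adjusted p = 0.397). Some Dnah11 exons lie opposite exons of Cdca7l (642 bases at most), whose mean was 4.02 FPKM in 2D and 7.74 FPKM in 3D, and the strand setting of the counting is not given in the sources used here.

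Among the 6 inner arm heavy chains analysed, Dnah2 and Dnah7b rose, Dnah10 fell, and Dnah1, Dnah6 and Dnah7a did not pass. Dnah2, a heavy chain of the 2-headed inner arm, stood at 0, 0, 0.0121 and 0.00424 FPKM in 2D and 2.98, 0.312, 0.742 and 1.76 FPKM in 3D, without overlap (log2 fold change 1.05 ± 0.29, adjusted p = 0.0211). Dnah10, its partner in that arm, stood at 0.135, 0.104, 0.0902 and 0.149 FPKM in 2D and 0.0141, 0.0176, 0.00941 and 0.00877 FPKM in 3D. All 4 3D values lay below all 4 2D values, 3 of them under the level of 3 fragments, and Dnah10 was the 1 axoneme gene that fell (log2 fold change −0.20 ± 0.05, adjusted p = 0.0114), from a 2D mean of 0.1195 ± 0.0273 FPKM (SD, n = 4). Both heavy chains of this arm thus had called differences, of opposite sign. Dnah7b, a single-headed inner arm motor at chr1:46066315-46373546 (plus strand), stood at 0.0421, 0.332, 0.246 and 0.0615 FPKM in 2D and 7.71, 3.57, 6.43 and 9.19 FPKM in 3D, highest in mouse 7 (log2 fold change 2.55 ± 0.26, adjusted p = 0.000215). Its near-identical copy Dnah7a, at chr1:53397006-53706784 (minus strand), was between 0 and 0.027 FPKM in 2D and between 0.0657 and 0.892 FPKM in 3D, and how reads were split between the 2 copies is uncertain. Dnah6 stood at 0.009104, 0, 0.00872 and 0.00921 FPKM in 2D and 10.96, 0.049, 0.0471 and 0.0536 FPKM in 3D, so that 3 of the 4 3D libraries were under 0.1 FPKM and mouse 1 alone was high (log2 fold change 0.92 ± 0.77, adjusted p = 0.379). Every 3D value of Dnah6 lay above every 2D value. Against the level of 3 fragments in 2D, its 3D mean without mouse 1 was at least 3.45-fold higher. Dnah1 was at most 0.0171 FPKM in 2D and 0.0337 to 0.502 FPKM in 3D.

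Of the 5 intermediate and light chains, Dnali1, Dnal1 and Dynlrb2 rose. Dnali1, a light intermediate chain of inner arms, stood at 0.0916, 0.268, 0.3204 and 0.123 FPKM in 2D and 28.9, 5.73, 12.1 and 12.97 FPKM in 3D, without overlap (log2 fold change 3.49 ± 0.44, adjusted p = 0.000576). Dynlrb2, a light chain at chr8:116504974-116515915 (plus strand), stood at 0 in every 2D library and at 44.1, 2.64, 2.97 and 4.35 FPKM in 3D. Against the level of 3 fragments in each 2D library, the 3D mean of Dynlrb2 was at least 38.9-fold higher, and without mouse 1 at least 9.56-fold (log2 fold change 2.90 ± 0.83, adjusted p = 0.0256, and a log2 fold change of 1.94 without mouse 1). Dnal1, an outer arm light chain, was expressed in both cultures at 3.73, 5.83, 6.17 and 3.38 FPKM in 2D and 12.4, 7.29, 8.84 and 10.99 FPKM in 3D and rose (log2 fold change 0.76 ± 0.21, adjusted p = 0.0243). It has up to 384 exon bases opposite Pnma1, whose mean was 0.739 FPKM in 2D and 3.02 FPKM in 3D. Both intermediate chains of the outer arm failed to pass. Dnaic1 stood at 0, 0, 0.0718 and 0 FPKM in 2D and 3.64, 0.108, 0.345 and 0.854 FPKM in 3D, without overlap (log2 fold change 0.83 ± 0.37, adjusted p = 0.11). Dnaic2 stood at 0.343, 0.397, 0.8603 and 0.0866 FPKM in 2D and 10.7, 0.139, 0.492 and 1.12 FPKM in 3D, and the cultures overlapped, since the 3D library of mouse 4 was lower than 3 of the 2D libraries (log2 fold change 0.75 ± 0.68, adjusted p = 0.414).

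Of the genes that dock or attach dynein arms, 4 of 5 rose, and the fifth, Armc4, did not pass. Ttc25, a docking complex subunit, stood at 0.0875, 0.107, 0.0209 and 0 FPKM in 2D and 15.99, 6.94, 9.94 and 9.94 FPKM in 3D (log2 fold change 3.38 ± 0.24, adjusted p = 3.74e-05). Ccdc151, another docking subunit, stood at 0.0576, 0.0843, 0.0824 and 0.233 FPKM in 2D and 14.7, 3.201, 4.85 and 7.21 FPKM in 3D (log2 fold change 2.63 ± 0.40, adjusted p = 0.00157). In both genes the cultures were far apart and mouse 1 was the highest 3D library. Ccdc114, the docking partner of Ccdc151, stood at 0.586, 0.572, 0.778 and 0.515 FPKM in 2D and 2.92, 7.86, 19.3 and 29.3 FPKM in 3D and ran the other way within 3D, with mouse 1 lowest and mouse 7 highest (log2 fold change 2.75 ± 0.66, adjusted p = 0.0123, and a log2 fold change of 3.40 without mouse 1). Ccdc103, which attaches arms to the doublet, stood at 0.181, 0.388, 0.413 and 0.0364 FPKM in 2D and 5.29, 3.28, 3.93 and 5.45 FPKM in 3D (log2 fold change 1.95 ± 0.18, adjusted p = 0.000114). Armc4, a docking subunit, stood at 0, 0, 0.0167 and 0 FPKM in 2D and 8.84, 0.188, 0.5402 and 1.71 FPKM in 3D. Every 3D value of Armc4 was above every 2D value, but the spread within 3D was wide (log2 fold change 1.35 ± 0.59, adjusted p = 0.108).

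The assembly factors act in the cytoplasm, where dynein arms are put together before transport into the cilium, and 4 of 5 rose. Dnaaf3 stood at 0.694, 0.819, 0.635 and 0.642 FPKM in 2D and 18.3, 4.12, 9.06 and 8.16 FPKM in 3D (log2 fold change 2.33 ± 0.39, adjusted p = 0.00241). Zmynd10 stood at 0.0745, 0.146, 0.0355 and 0.113 FPKM in 2D and 11.5, 1.85, 4.06 and 6.37 FPKM in 3D (log2 fold change 2.34 ± 0.43, adjusted p = 0.00358). Lrrc6, which acts with Zmynd10, stood at 0 in every 2D library and at 6.12, 1.12, 3.295 and 4.1 FPKM in 3D, and its 3D mean was at least 41.7-fold higher (log2 fold change 1.97 ± 0.33, adjusted p = 0.00228). None of these 3 overlapped between the cultures, and mouse 4 was the lowest 3D library in each. Dnaaf1 stood at 0.0656, 0.0213, 0.0209 and 0 FPKM in 2D and 2.03, 0.731, 0.978 and 1.095 FPKM in 3D (log2 fold change 0.94 ± 0.13, adjusted p = 0.000968). This was the smallest rise of the group on the log2(FPKM + 1) scale, which understates changes from such low 2D values. Dnaaf1 shares up to 584 exon bases with Taf1c on the other strand. Dnaaf2 was expressed in both cultures, at 6.37, 3.096, 3.19 and 6.67 FPKM in 2D and 4.41, 3.296, 3.399 and 3.79 FPKM in 3D, and overlapped (log2 fold change −0.46 ± 0.26, adjusted p = 0.204). It has up to 702 exon bases opposite the noncoding gene 9330151L19Rik, at a mean of 2.12 FPKM in 2D and 8.81 FPKM in 3D. Without the 2D libraries of mice 3 and 4 Dnaaf2 was the second gene called lower (log2 fold change −0.91 ± 0.14, adjusted p = 0.00499).

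The 3 radial spoke head genes had some of the larger differences. Rsph9, at chr17:46122035-46144216 (minus strand), stood at 0.799, 1.34, 2.65 and 0.562 FPKM in 2D and 45.3, 21.3, 34.01 and 46.2 FPKM in 3D (log2 fold change 4.04 ± 0.33, adjusted p = 6.23e-05). Rsph1 stood at 0.305, 0.1195, 0 and 0.184 FPKM in 2D and 30.3, 11.1, 14.7 and 23.7 FPKM in 3D (log2 fold change 4.06 ± 0.34, adjusted p = 7.6e-05). Rsph4a stood at 0.0662, 0, 0.0475 and 0.0334 FPKM in 2D and 26.8, 4.12, 4.35 and 9.06 FPKM in 3D (log2 fold change 3.12 ± 0.56, adjusted p = 0.00319, and a log2 fold change of 2.53 without mouse 1). None of the 3 overlapped, and mouse 7 reached the level of mouse 1 for Rsph9 but not for Rsph4a. Ropn1l, from the base of the spoke, did not pass and overlapped, at 2.43, 2.72, 4.12 and 1.35 FPKM in 2D and 5.74, 4.18, 2.97 and 1.59 FPKM in 3D (log2 fold change 0.04 ± 0.32, adjusted p = 0.932).

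All 5 genes of the nexin-dynein regulatory complex and of the rulers that set its spacing rose. Gas8, a regulatory complex subunit at chr8:123518834-123536650 (plus strand), was expressed in both cultures, at 11.5, 10.6, 12.3 and 12.7 FPKM in 2D and 19.8, 19.2, 21.9 and 28.8 FPKM in 3D, and had the highest 2D level of the axoneme genes that rose, with a 2D mean of 11.8 FPKM (log2 fold change 0.93 ± 0.15, adjusted p = 0.00179). Its partner Ccdc65 stood at 0.3098, 0.74, 0.263 and 0.417 FPKM in 2D and 10.9, 4.79, 5.92 and 8.57 FPKM in 3D (log2 fold change 2.34 ± 0.27, adjusted p = 0.000351). Drc1, the scaffold of the complex, stood at 0.0835, 0.0272, 0.239 and 0.0281 FPKM in 2D and 7.45, 1.53, 3.42 and 0.504 FPKM in 3D, and its lowest 3D library was that of mouse 7 (log2 fold change 1.56 ± 0.46, adjusted p = 0.0284). Both ruler genes, whose proteins wind together along the doublet, rose. Ccdc39 stood at 0.635, 1.29, 1.39 and 0.574 FPKM in 2D and 22.8, 7.66, 12.3 and 15.5 FPKM in 3D (log2 fold change 2.77 ± 0.32, adjusted p = 0.000399) and has up to 839 exon bases opposite Ttc14, which was at a mean of 11.1 FPKM in 2D and 14.7 FPKM in 3D. Ccdc40 stood at 0.0119, 0.0696, 0.0798 and 0.0361 FPKM in 2D and 18.3, 3.35, 3.49 and 10.3 FPKM in 3D (log2 fold change 2.88 ± 0.51, adjusted p = 0.00301).

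Of the 7 central pair genes tested, Spag6, Spef2 and Stk36 rose. Spag6, at chr2:18694032-18750413 (plus strand), stood at 0 in every 2D library and at 27.9, 8.96, 14.4 and 18.03 FPKM in 3D, and the 3D mean was at least 233-fold higher, or 185-fold without mouse 1 (log2 fold change 4.12 ± 0.33, adjusted p = 6.17e-05). Spef2 stood at 0, 0, 0.0434 and 0.0889 FPKM in 2D and 21.4, 5.68, 8.396 and 19.5 FPKM in 3D (log2 fold change 3.64 ± 0.43, adjusted p = 0.000424). Stk36, a kinase needed for central pair formation, was already near 1 FPKM in 2D, at 0.905, 1.101, 1.32 and 0.5599 FPKM in 2D and 9.54, 5.25, 6.23 and 7.298 FPKM in 3D (log2 fold change 1.79 ± 0.20, adjusted p = 0.000296). The cultures did not overlap for any of these. Hydin and Spag17, both very long genes, did not pass although their cultures did not overlap either. Hydin stood at 0.00364, 0, 0 and 0 FPKM in 2D and 3.75, 0.231, 0.401 and 0.521 FPKM in 3D (log2 fold change 0.83 ± 0.36, adjusted p = 0.104), and Spag17 stood at 0.0296, 0.0649, 0.0213 and 0.0899 FPKM in 2D and 3.35, 0.231, 0.315 and 1.36 FPKM in 3D (log2 fold change 0.84 ± 0.34, adjusted p = 0.0875). Spag17 has up to 820 exon bases opposite Wdr3. Spag16 was at most 0.116 FPKM and Ak7 at most 0.0578 FPKM in any library, which is near or under the level of 3 fragments.

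Tektins and other microtubule inner proteins line the inside of the doublets. In the group listed under that heading, 7 of the 10 genes tested rose. Among them were the 2 genes with the largest fold changes of the 54 on the log2(FPKM + 1) scale. The heading is a grouping and does not place the protein of each gene, such as Pifo, inside the doublet. Cfap126, at chr1:171113918-171126967 (plus strand), stood at 0.637, 2.02, 0.871 and 0.427 FPKM in 2D and 98.7, 23.8, 39.9 and 65.5 FPKM in 3D (log2 fold change 4.82 ± 0.47, adjusted p = 0.000164). Pifo, at chr3:105996957-106014646 (minus strand), stood at 0 in every 2D library and at 46.4, 12.1, 15.1 and 29.6 FPKM in 3D, and the 3D mean was at least 135-fold higher (log2 fold change 4.64 ± 0.43, adjusted p = 0.00013). For both genes the lowest 3D library, that of mouse 4, lay more than 10 times above the highest 2D library.

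Cfap45 stood at 0.0712, 0.279, 0.1697 and 0.0718 FPKM in 2D and 22.4, 8.65, 11.2 and 18.8 FPKM in 3D (log2 fold change 3.72 ± 0.31, adjusted p = 7.77e-05). Enkur stood at 0.4104, 0.173, 0.612 and 0.413 FPKM in 2D and 32.8, 7.996, 12.2 and 16.8 FPKM in 3D (log2 fold change 3.47 ± 0.42, adjusted p = 0.000489). Cfap52 stood at 0.0288, 0, 0 and 0 FPKM in 2D and 7.63, 2.58, 3.66 and 5.02 FPKM in 3D (log2 fold change 2.30 ± 0.26, adjusted p = 0.00031). In all of them the 3D order was mouse 1, 7, 5 and 4. Ak8, an adenylate kinase of the doublet, stood at 0 in every 2D library and at 4.74, 0.595, 1.41 and 2.74 FPKM in 3D and was at least 20.3-fold higher, or 13.5-fold without mouse 1 (log2 fold change 1.48 ± 0.35, adjusted p = 0.0108).

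The tektins, filament proteins inside the doublet, split. Tekt1, at chr11:72344722-72362442 (minus strand), stood at 0 in every 2D library and at 17.4, 0.779, 1.93 and 4.69 FPKM in 3D and was at least 48.9-fold higher, or 19.5-fold without mouse 1 (log2 fold change 2.20 ± 0.68, adjusted p = 0.0329, and a log2 fold change of 1.49 without mouse 1). Tekt4 stood at 0 in every 2D library and at 6.73, 0.754, 1.25 and 0.416 FPKM in 3D, without overlap, and did not pass (log2 fold change 1.27 ± 0.47, adjusted p = 0.0632). Tekt2 overlapped and its 3D mean was the lower one, at 0.449, 0.703, 1.58 and 0.588 FPKM in 2D and 0.308, 0.485, 0.412 and 1.096 FPKM in 3D (log2 fold change −0.41 ± 0.20, adjusted p = 0.144). Tekt3 was at 0 throughout. Cfap53 was between 0 and 0.0985 FPKM in 2D and between 0 and 0.592 FPKM in 3D, overlapping.

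The last group holds other cilium proteins. Cfap44, part of the tether that holds the 2-headed inner arm, stood at 0.008904, 0.0347, 0 and 0 FPKM in 2D and 44.8, 6.68, 18.2 and 23.9 FPKM in 3D (log2 fold change 4.38 ± 0.53, adjusted p = 0.000478). Its tether partner Cfap43 stood at 0.307, 0.482, 0.426 and 0.4301 FPKM in 2D and 10.7, 1.47, 1.11 and 2.16 FPKM in 3D, without overlap, and did not pass (log2 fold change 1.21 ± 0.52, adjusted p = 0.101), and it shares up to 164 exon bases with Itprip on the same strand, which was at a mean of 13.1 FPKM in 2D and 2.32 FPKM in 3D. Mlf1 was expressed in 2D as well and rose, at 3.79, 1.13, 1.28 and 4.58 FPKM in 2D and 56.7, 9.66, 13.3 and 17.6 FPKM in 3D (log2 fold change 2.53 ± 0.64, adjusted p = 0.0148). Tppp3, which binds tubulin, overlapped in the 2 cultures, at 9.38, 0.986, 1.29 and 3.96 FPKM in 2D and 15.2, 1.24, 3.03 and 3.33 FPKM in 3D (log2 fold change 0.20 ± 0.76, adjusted p = 0.844). Sntn, known from the tip of cilia, was at 0 in every library.

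**Figure D2:**
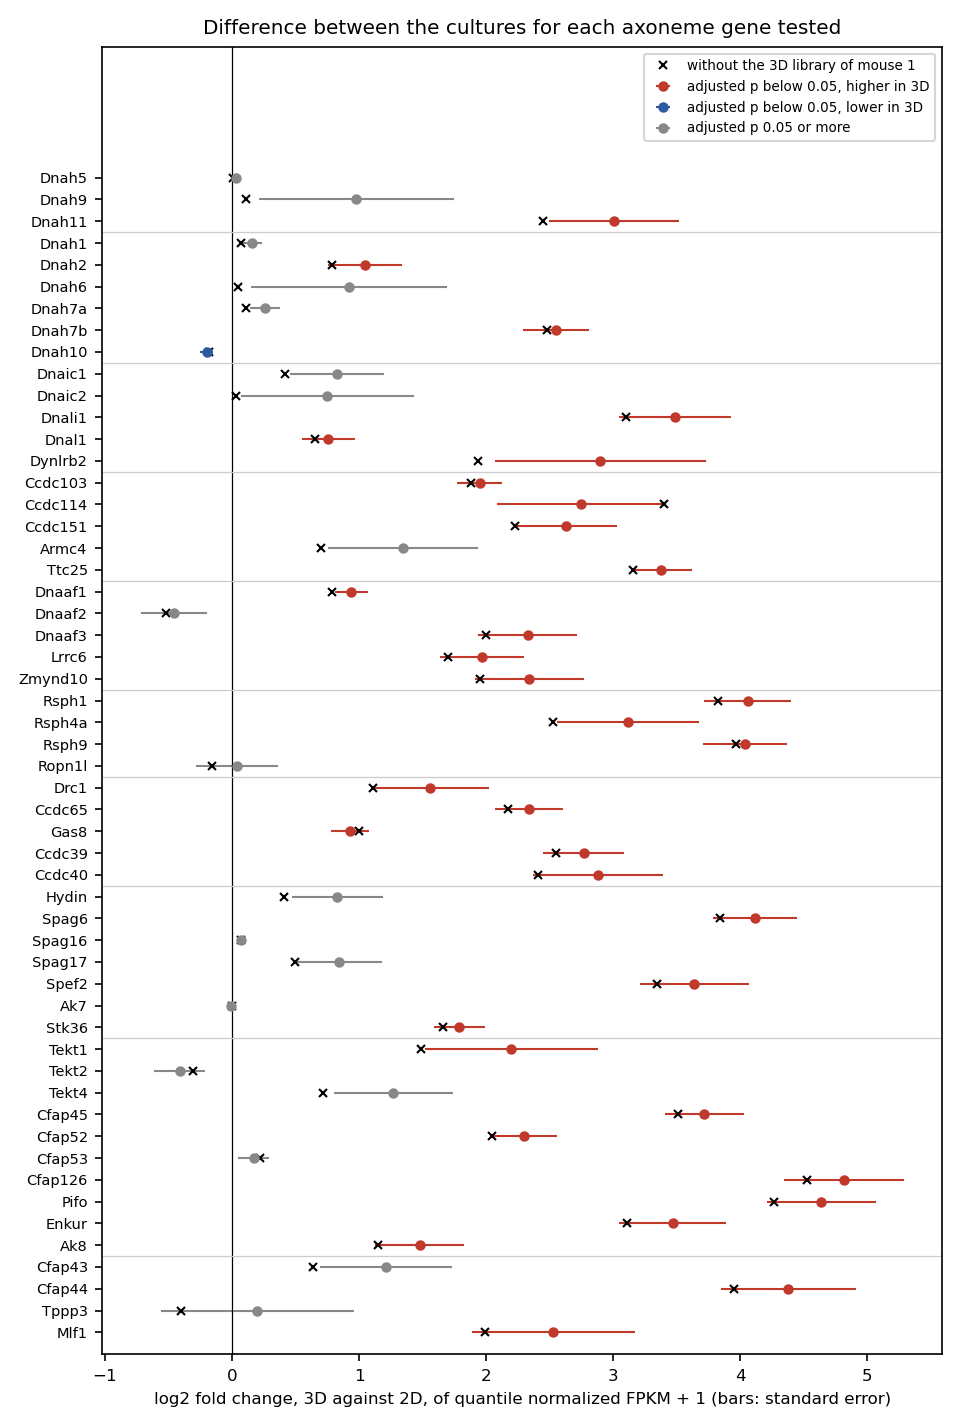
Log2 fold change of quantile normalized FPKM + 1 between 3D and 2D (x axis) for the 54 axoneme genes tested, grouped by role as in the heat map, with standard errors as bars and crosses for the fit without the 3D library of mouse 1. The 34 red points lie between 0.76 and 4.82, the 1 blue point is Dnah10 at −0.20, and the grey points with long bars, include Dnah9 and Dnah6, whose crosses lie near 0.

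Of the 35 calls, 5 were lost when a single library was left out. Dynlrb2 lost its call without any 1 of the 4 2D libraries (adjusted p from 0.0503 to 0.0523), and Drc1 without any 1 of them or the 3D library of mouse 5 (0.0508 to 0.0728). Tekt1 lost its call without any 1 of the 2D libraries or the 3D library of mouse 7 (0.0637 to 0.0753), and Dnah2 without the 3D library of mouse 7 (0.0549). Dnal1 lost it without the 2D library of mouse 2 or 5 or the 3D library of mouse 1 or 7 (0.0545 to 0.0658). In the other direction, Hydin, Tekt4, Cfap43 and Dnah7a passed without the 3D library of mouse 1, with adjusted p of 0.00488, 0.00298, 0.0185 and 0.0319. Their differences were smaller in that fit, with log2 fold changes of 0.41, 0.72, 0.64 and 0.11. Without the 3D library of mouse 4 Spag17 (adjusted p = 0.0423) and Spag16 (0.0228, log2 fold change 0.10) passed, and without that of mouse 7 Tekt4 (0.0452) and Tekt2, as a lower gene (log2 fold change −0.57, adjusted p = 0.0349), passed.

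Within 3D, the axoneme genes kept a common order that was noticed after the values had been seen and is given as a description. Genes were taken at a mean of at least 1 FPKM over the 3D libraries of mice 4, 5 and 7, a level that does not use mouse 1. Of the 36 axoneme genes of that level, mouse 1 was the highest library in 31 (86.1% against 31.5% of the 11870 such genes in the whole table) and mouse 4 the lowest in 32 (88.9% against 27.5%). The order mouse 1, 7, 5, 4 held in 26 genes (72.2% against 8.07%). Mouse 1 was 2.22 times the mean of the other 3 3D libraries at the median of the 36 genes, against 0.991 times over all such genes. The ratio exceeded 5 in 4 genes (11.1% against 0.8%), which were Dynlrb2, Tekt1, Cfap43 and Tppp3, and was highest for Dynlrb2 at 13.3. It was below 1 in 2 genes, Ccdc114 at 0.155 and Gas8 at 0.849. A further 10 genes reached a 3D mean of 1 FPKM only with mouse 1, so their ratios, 2.17 to 220, are given as values alone, with Dnah6 at 220, Dnah9 at 112, Dnaic2 at 18.4 and Armc4 at 10.9.

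**Figure D3:**
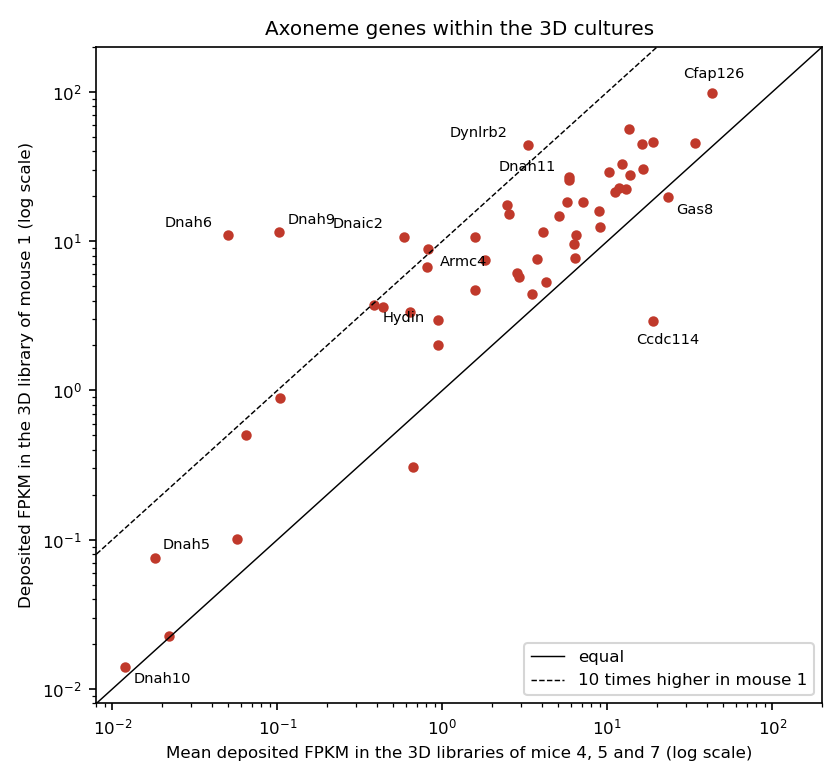
Deposited FPKM in the 3D library of mouse 1 (y axis, log scale) against the mean of the 3D libraries of mice 4, 5 and 7 (x axis, log scale) for the axoneme genes above 0 in both. Most points lie between the line of equal values and the dashed line at 10 times, Dnah6 and Dnah9 lie far above it, and Ccdc114 lies below the line of equal values.

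Other values moved with mouse 1. Its summed level of 8 epididymal epithelium markers was 5.16 FPKM against 0.151 to 0.593 in the other 3D libraries and 0.258 to 0.661 in 2D, of which Crisp1 gave 4.21 FPKM, while Lcn8, Lcn9, Adam7 and Gpx5 were at 0 in it. None of the 6 epididymal markers tested passed between the cultures. Sperm and spermatid markers, 10 genes whose cells also carry an axoneme, summed to at most 0.35 FPKM in any library, with Tnp1, Acrv1 and Smcp at 0 in all 8. The stem cell marker Ly6a stood at 50.3 FPKM in mouse 1 and at 1627 to 2607 FPKM in the other 3D libraries. The part of any of these in the order within 3D was not tested.

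The regulators of the multiciliated programme were read from a list of 13 genes, of which 11 were tested and 5 were higher and 0 lower in 3D, beside 21.2% and 20.3% of all genes. Foxj1, the main activator of motile cilium genes, at chr11:116330704-116335399 (minus strand), stood at 0.0483, 0.0706, 0.115 and 0.171 FPKM in 2D and 289, 86.7, 115 and 153 FPKM in 3D. The cultures were far apart, and Foxj1 rose more than any axoneme gene tested on the log2(FPKM + 1) scale (log2 fold change 7.34 ± 0.33, adjusted p = 3.21e-06). Rfx2 stood at 0.167, 0.254, 0.142 and 0.07503 FPKM in 2D and 10.8, 4.06, 5.41 and 8.01 FPKM in 3D (log2 fold change 2.60 ± 0.27, adjusted p = 0.000245). Rfx3 stood at 0.765, 1.402, 1.13 and 0.849 FPKM in 2D and 15.6, 4.77, 4.73 and 7.75 FPKM in 3D (log2 fold change 1.82 ± 0.37, adjusted p = 0.00551). Both RFX factors and Foxj1 were highest in mouse 1, as most axoneme genes were. E2f5 rose from 4.64 to 7.00 FPKM in 2D to 17.5 to 20.4 FPKM in 3D (log2 fold change 1.56 ± 0.15, adjusted p = 0.000162) and Myb, at 0 in 2D, to 0.183 to 1.02 FPKM (log2 fold change 0.46 ± 0.11, adjusted p = 0.0136).

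Of the genes that start the programme and multiply basal bodies, Gmnc, Foxn4, Mcidas, Ccno, Deup1, Cdc20b and Trp73 were at 0 or below 1 FPKM in every library. Cdc20b was at most 0.0417 FPKM in any library. Gmnc and Foxn4 were listed at 0 in all 8 libraries, and Mcidas, which acts above Foxj1, was at 0 in 7 and at 0.0288 FPKM in the 3D culture from mouse 4. Ccno, needed for basal body amplification, was at 0.0328 to 0.452 FPKM in 2D and at 0.079 to 0.22 FPKM in 3D (log2 fold change −0.21 ± 0.18, adjusted p = 0.389), and Deup1, which builds the deuterosomes, was at most 0.116 FPKM in any library. Trp73, known to act above Foxj1, was at 0.715 FPKM in the 3D library of mouse 1, at 0 to 0.0377 FPKM in the other 3D libraries and at most 0.0128 FPKM in 2D, and did not pass (log2 fold change 0.15 ± 0.12, adjusted p = 0.355). E2f4 was expressed in both cultures without passing (log2 fold change −0.43 ± 0.16, adjusted p = 0.0615).

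**Figure D4:**
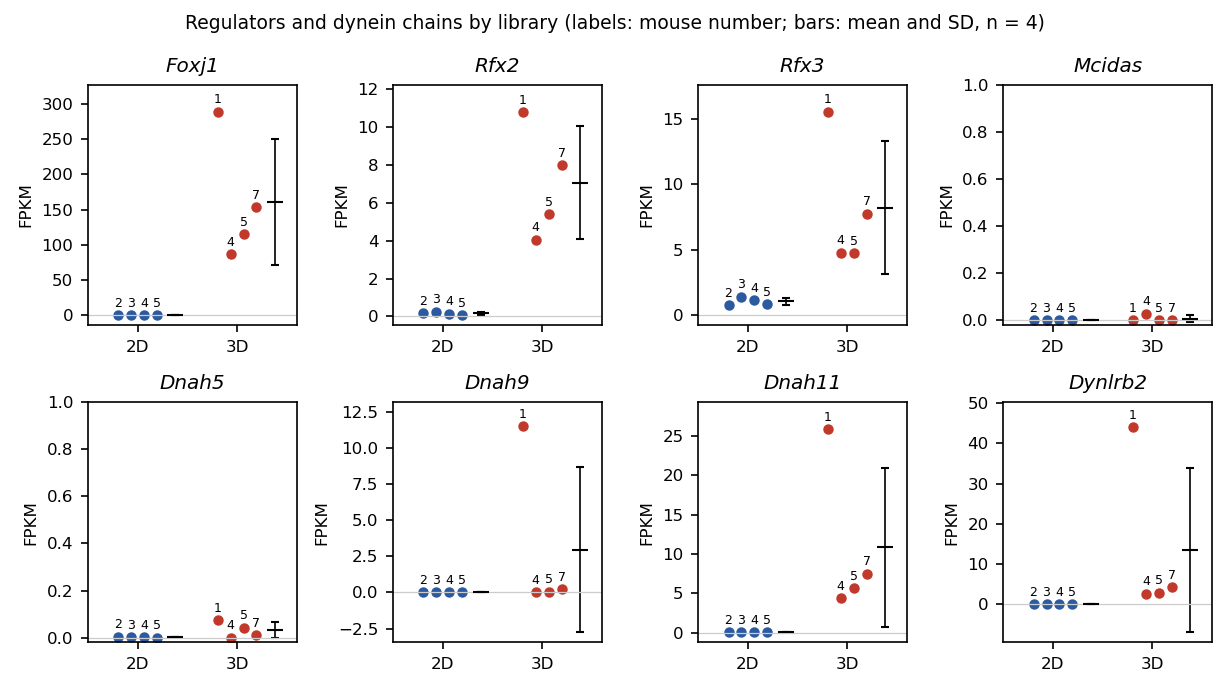
Deposited FPKM (y axis) of 4 regulators and 4 dynein chains in the 2D (blue) and 3D (red) libraries, each point labelled with its mouse number, with mean and SD of 4 libraries as black bars. Foxj1, Rfx2, Rfx3 and Dnah11 are above the 2D values in all 4 3D libraries, Dnah9 is high only in mouse 1 at 11.5 FPKM, and Mcidas and Dnah5 stay under 0.1 FPKM.

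A further list of 49 motile cilium genes outside the 59 had 43 genes in the tables and 42 tested, of which 21 were higher and 0 lower in 3D, beside 21.2% and 20.3% of all genes, with a median log2 fold change of 0.73. The largest differences on the log2(FPKM + 1) scale were those of Capsl (log2 fold change 5.63 ± 0.39, adjusted p = 3.02e-05) and the radial spoke gene Nme5 (log2 fold change 4.82 ± 0.25, adjusted p = 7.4e-06). Nme5 stood at 0.1903, 0.0939, 0.0898 and 0.0955 FPKM in 2D and 40.7, 19.1, 25.9 and 33.6 FPKM in 3D. The radial spoke genes Rsph3a, Rsph3b, Rsph6a and Rsph14 of this list did not pass (adjusted p = 0.228, 0.304, 0.6 and 0.562). The regulatory complex genes Drc3, Drc7 and Iqcg rose, as did the 5 axoneme genes of that role, Drc7 standing at 0 in every 2D library and at 17.6, 2.63, 4.995 and 11.1 FPKM in 3D. Tcte1, Fbxl13 and Iqca, also of the complex, did not pass (adjusted p = 0.757, 0.225 and 0.182). As with Dnah6 and Dnah9, some of this list were high in mouse 1 and near 0 elsewhere. Fam183b was at 16.5 FPKM in mouse 1 in 3D and at 0 in the other 7 libraries, and Cfap73 was at 28.0 FPKM there and at 0.179 to 0.347 FPKM in the other 3D libraries, and neither passed.

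Intraflagellar transport genes, which primary and motile cilia both use, were expressed in both cultures, and 23 of 29 were higher and 1 lower in 3D, beside the same 21.2% and 20.3%. Their median log2 fold change was 1.20. The summed level was 246 to 306 FPKM in 2D and 423 to 628 FPKM in 3D. Dync2h1, the motor of return transport, stood at 1.54, 2.301, 2.27 and 1.95 FPKM in 2D and 23.5, 11.4, 15.2 and 18.8 FPKM in 3D (log2 fold change 2.44 ± 0.23, adjusted p = 0.000132), and Ift88 at 2.13, 3.1, 4.05 and 2.33 FPKM in 2D and 16.8, 11.1, 12.2 and 16.7 FPKM in 3D (log2 fold change 1.82 ± 0.20, adjusted p = 0.00028). Ift20 was the gene of this list that fell, at 70.7, 47.3, 60.7 and 58.99 FPKM in 2D and 30.8, 21.02, 20.6 and 25.02 FPKM in 3D (log2 fold change −0.97 ± 0.15, adjusted p = 0.0019). With the mouse as a block, limma called 0 genes of each of these 3 lists, and also 0 of all genes tested. An unadjusted p below 0.05 was found for 4 of 11 regulators, 19 of 42 further motile cilium genes and 14 of 29 transport genes. Over all genes tested that share was 27.7%. Without the 3D library of mouse 1 the counts called higher were 5, 20 and 22 and those called lower 0, 1 and 1, beside 21.7% and 18.7% of all genes. The further motile cilium gene called lower in that fit was Cfap100 (log2 fold change −0.94, adjusted p = 0.00455).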

How the data were processed

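Total RNA was depleted of ribosomal RNA and sequenced as directional libraries from 4 2D and 4 3D cultures. The authors trimmed reads, aligned them with TopHat to mm10 and estimated FPKM with Cufflinks, and the deposited values are FPKM for each gene and library without counts. The quantile normalization named in the study's methods is not in the deposited values, and the versions of TopHat and Cufflinks are not given in the sources used here.

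FPKM of genes above 0 in at least 1 library (18862 of 24346) were quantile normalized and then taken as log2(FPKM + 1), pseudocount 1. The 3D libraries were compared with the 2D libraries in limma 3.58.1 (R 4.3.3) with an intensity trend, no covariate and Benjamini-Hochberg adjustment over all genes. The script was tested on simulated data. Calls are at an adjusted p below 0.05, two-sided. Fragment depth was estimated from the steps of low FPKM values of 875 genes with 1 transcript of at least 3000 bases (GENCODE M21, GRCm38), of which 69.9% to 81.2% lay within 0.15 of whole multiples. A value of 3 fragments served as the floor for genes at 0, and floors and folds against them cover counting error only. The libraries of mice 4 and 5 pair by animal, but the deviations of the paired libraries from their culture means correlated at −0.053 and −0.113 over 12577 genes. Libraries of 1 culture came from different mice. Values in every library are given for genes that passed, genes with a mean of at least 1 normalized FPKM in either culture, and Dnah5, Dnah9, Rsph1, Tekt1 and Cfap126. The genes, lists and motifs were chosen with earlier results of these data known. Alternatives were values as deposited, no trend, a mean of at least 1 FPKM, genes at 0 kept, pseudocount 0.1, the mouse as block or random effect, only mice 4 and 5, and leaving out each library. Leaving out the 2D libraries of mice 3 and 4 was chosen after seeing the data.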

Additional observations from a re-analysis of the deposited data

Results flagged for a closer look

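In 84 groups of 4 libraries, each an axoneme gene in 1 culture on the log2(FPKM + 1) scale, the gap of the highest or lowest library to its neighbour was compared with the group's range, and 6 passed Dixon's 95% critical value for 4 values. Chance passes about 5% of groups of normal values. These groups share the same libraries, and some hold several values of 0, so the 5% is no yardstick for the 6. In 4 of the 6 the library was that of mouse 1 in 3D, with Dnah6 at 11.0 FPKM, Dnah9 at 11.5 FPKM, Dynlrb2 at 44.1 FPKM and Hydin at 3.74 FPKM. Those 4 genes were at most 0.0536, 0.232, 4.35 and 0.521 FPKM in the other 3D libraries. The other two were low values in 2D, Dnaic1 at 0.0718 FPKM in the library of mouse 4, with 0 in the other 3, and Ccdc151 at 0.233 FPKM in the library of mouse 5.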

How the results depend on the processing

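No axoneme gene with a call changed direction under any alternative run. Axoneme genes called higher in 3D were 34 with all libraries and between 26 and 41 under the other settings, except for the fit with the mouse as a replicate block, which called 0 higher and 0 lower. That fit also called 0 of all 18862 genes tested. The lowest other count, 26, came with only mice 4 and 5, where 1788 of all 18081 genes tested were higher. The highest, 41, came with a pseudocount of 0.1. There 4144 of all 18862 genes were higher, against 4000 at a pseudocount of 1. Leaving out 1 library gave 30 to 37 higher and 1 to 2 lower. Over all 18632 to 18762 genes tested, those fits called 3393 to 4051 higher and 3204 to 3835 lower. The count of genes lower, 1 with all libraries, was 0 with a mean of at least 1 FPKM, which takes Dnah10 out of the test, 0 with only mice 4 and 5, and 2 without the 2D libraries of mice 3 and 4. The block also called 0 further motile cilium genes, 0 regulators and 0 intraflagellar transport genes, against 21, 5 and 24. With only mice 4 and 5, 12 transport genes were called. That fit called 1788 higher and 1432 lower of all 18081 genes tested. Leaving out 1 library gave 17 to 24, 5 to 6 and 21 to 24. The median log2 fold change of axoneme genes was 1.87, 1.57 to 1.98 without 1 library and 3.47 with a pseudocount of 0.1, which also called Armc4, Cfap43, Dnah7a, Dnaic1, Hydin, Spag17 and Tekt4. Keeping genes at 0 lost Drc1, Dynlrb2 and Tekt1. The cause of these shifts was not tested. With 4 libraries a culture and 14500000 to 17300000 fragments, depth limits what can be read for genes near the level of 3 fragments in both cultures, such as Ak7 and Dnah5.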
